A study of Mus musculus with 3 samples.

Results

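Cadherins and protocadherins are the surface proteins by which neighbouring cells hold and recognise each other, and 60 of the 15122 genes counted in mouse forelimb buds belong to these families. The rule took every gene whose symbol is Cdh followed by a number or begins with Pcdh. It left out Cdh1, Cdh3 and Cdh5, which mark epithelia and vessels, and it was set with earlier results of these data known. The 60 comprised 14 cadherins, 34 protocadherins of the clustered beta and gamma arrays and 12 other protocadherins, and 37 of them lie on chromosome 18. Forelimb buds of wild-type mouse embryos (E gives the embryonic day) were split into single cells with trypsin and their RNA was counted with droplet sequencing of transcript 3′ ends, in which each captured molecule carries a unique molecular identifier (UMI). There were 3 libraries, each from 1 reaction: B6_E10.5 (strain c57bl6.J, stage E10.5), 129_E9.5 (strain 129S6.sv, stage E9.5) and B6_E9.5 (strain c57bl6.J, stage E9.5). No group carried a mutation or a treatment, and how many embryos entered a reaction is not stated in the labels.

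A cadherin binds the same or a related cadherin on the next cell in the presence of calcium, and its inner tail holds catenins that join it to actin. Which cadherins a tissue makes is known to help keep its cell layers apart, as in the sorting of epithelium from mesenchyme and of neural crest from its source. Protocadherins share the outer repeats but have other tails. The clustered ones are best known as identity tags of neurons, and the others act in cell movement and contact in several embryonic tissues. In the limb bud a core of mesenchyme is covered by ectoderm, whose rim, the apical ectodermal ridge, makes Fgf8 and drives outgrowth. Muscle progenitors and vessels enter the core from the trunk.

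The libraries held 119942504 UMIs in 18957 cells for B6_E10.5, 93029510 UMIs in 12220 cells for 129_E9.5 and 124388358 UMIs in 12773 cells for B6_E9.5. Depth per cell was uneven, since cells under 2000 UMIs made up 10.1% of B6_E10.5, 3.49% of 129_E9.5 and 30.8% of B6_E9.5, and 1728 cells had a barcode that also occurred in another library. The 5 clusters deposited by the authors carried the markers of limb mesenchyme, ectoderm, muscle progenitors, endothelium and erythroid cells, with markers of each class at the highest summed level in its own class. Levels are CPM, a gene's UMIs per 1000000 UMIs of a class in a library. Markers of other cell types were present in several classes. In the endothelial class, macrophage and myeloid markers summed to 1438 CPM in B6_E10.5, 24.1 in 129_E9.5 and 37.6 in B6_E9.5, and megakaryocyte markers to 1333, 276 and 224 CPM. In the muscle class neuron markers summed to 12.0, 780 and 7.28 CPM, and in ectoderm neural crest markers to 248, 55.7 and 36.3 CPM and mesenchyme markers to 293, 310 and 398 CPM, in the same order of libraries. Of the neural crest sum in ectoderm, Tfap2b alone made up 231, 40.02 and 17.4 CPM. Each molecule gives 1 tag whatever the transcript's length, so no length correction was made.

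In the Fgf8-positive part of the ectoderm 5 members were higher, and the 250 bases before the RefSeq start of 4 of these genes are shown because they moved together (build GRCm38.p6, all on the minus strand, written 5′ to 3′). Capitals mark matches, on either strand, to 5 short motifs that were searched: the E-boxes CAGCTG and CAGGTG, the GC box GGGCGG, the TCF/LEF core CTTTGA and the TATA box TATAAA. The stretches are chrX:133688994-133689243 for Pcdh19, chr15:13173676-13173925 for Cdh6, chr14:93890680-93890929 for Pcdh9 and chr3:49757317-49757566 for Pcdh18.
Pcdh19: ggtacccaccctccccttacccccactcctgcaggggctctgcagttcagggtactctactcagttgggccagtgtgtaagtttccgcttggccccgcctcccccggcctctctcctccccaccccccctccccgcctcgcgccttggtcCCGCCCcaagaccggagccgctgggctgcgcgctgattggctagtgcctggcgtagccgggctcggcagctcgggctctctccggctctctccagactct
Cdh6: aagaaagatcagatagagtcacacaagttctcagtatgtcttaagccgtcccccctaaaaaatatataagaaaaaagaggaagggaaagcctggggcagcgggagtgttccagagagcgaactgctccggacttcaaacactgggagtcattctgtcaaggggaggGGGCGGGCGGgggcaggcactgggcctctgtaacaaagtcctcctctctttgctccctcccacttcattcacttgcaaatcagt
Pcdh9: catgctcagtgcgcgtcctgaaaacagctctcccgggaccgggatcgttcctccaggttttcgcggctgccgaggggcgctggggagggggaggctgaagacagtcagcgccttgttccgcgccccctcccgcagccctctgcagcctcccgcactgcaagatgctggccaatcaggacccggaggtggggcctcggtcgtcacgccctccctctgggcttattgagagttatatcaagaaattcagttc
Pcdh18: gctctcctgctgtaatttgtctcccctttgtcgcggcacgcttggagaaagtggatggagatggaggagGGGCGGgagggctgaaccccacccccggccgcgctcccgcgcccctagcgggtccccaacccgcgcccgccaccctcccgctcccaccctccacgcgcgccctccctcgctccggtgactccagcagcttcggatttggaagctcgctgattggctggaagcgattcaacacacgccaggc

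Of the 5 motifs, the GC box alone was found in these 4 windows: 1 match before Pcdh19, 2 overlapping matches before Cdh6, 1 before Pcdh18 and 0 before Pcdh9. A GC box stood in 32.9% of the 27025 promoters of the table and in 9 of the 18 members found there. CAGGTG, the E-box known to be bound by Snail and Zeb repressors, stood in 17.1% of all promoters and in 2 of the 18 members, and CAGCTG in 12.8% and in 0. CTTTGA stood in 14.05% of all promoters and in 1 of the 18, and TATAAA in 13.0% and in 2. The windows held 69.2% G and C before Pcdh19, 51.2% before Cdh6, 63.6% before Pcdh9 and 68.0% before Pcdh18, against a median of 52.0% over all promoters. A match describes the letters and is not evidence that a factor binds.

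Only a minority of the family reached 10 CPM anywhere. The highest level reached in any class and library was at least 10 CPM for 6 of 14 cadherins, 7 of 12 other protocadherins and 1 of 34 clustered protocadherins, and it stayed under 1 CPM for 4, 2 and 24 of them. The clustered gamma genes, among them Pcdhga12, share their last exons, where 3′ tags fall, so their counted levels are uncertain. Of the 14 genes of highest level, Pcdh1 and Pcdh12 were highest in endothelium, Pcdh19, Cdh15, Pcdh11x and Cdh2 in muscle progenitors, Pcdh18 in mesenchyme and Pcdh7 in ectoderm, in each library. The class in which Cdh11, Pcdh17, Cdh24, Cdh6, Cdh13 and Pcdhga12 were highest depended on the library. The clusters were made from these same counts, so levels are described between classes without a test.

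**Figure D1:**
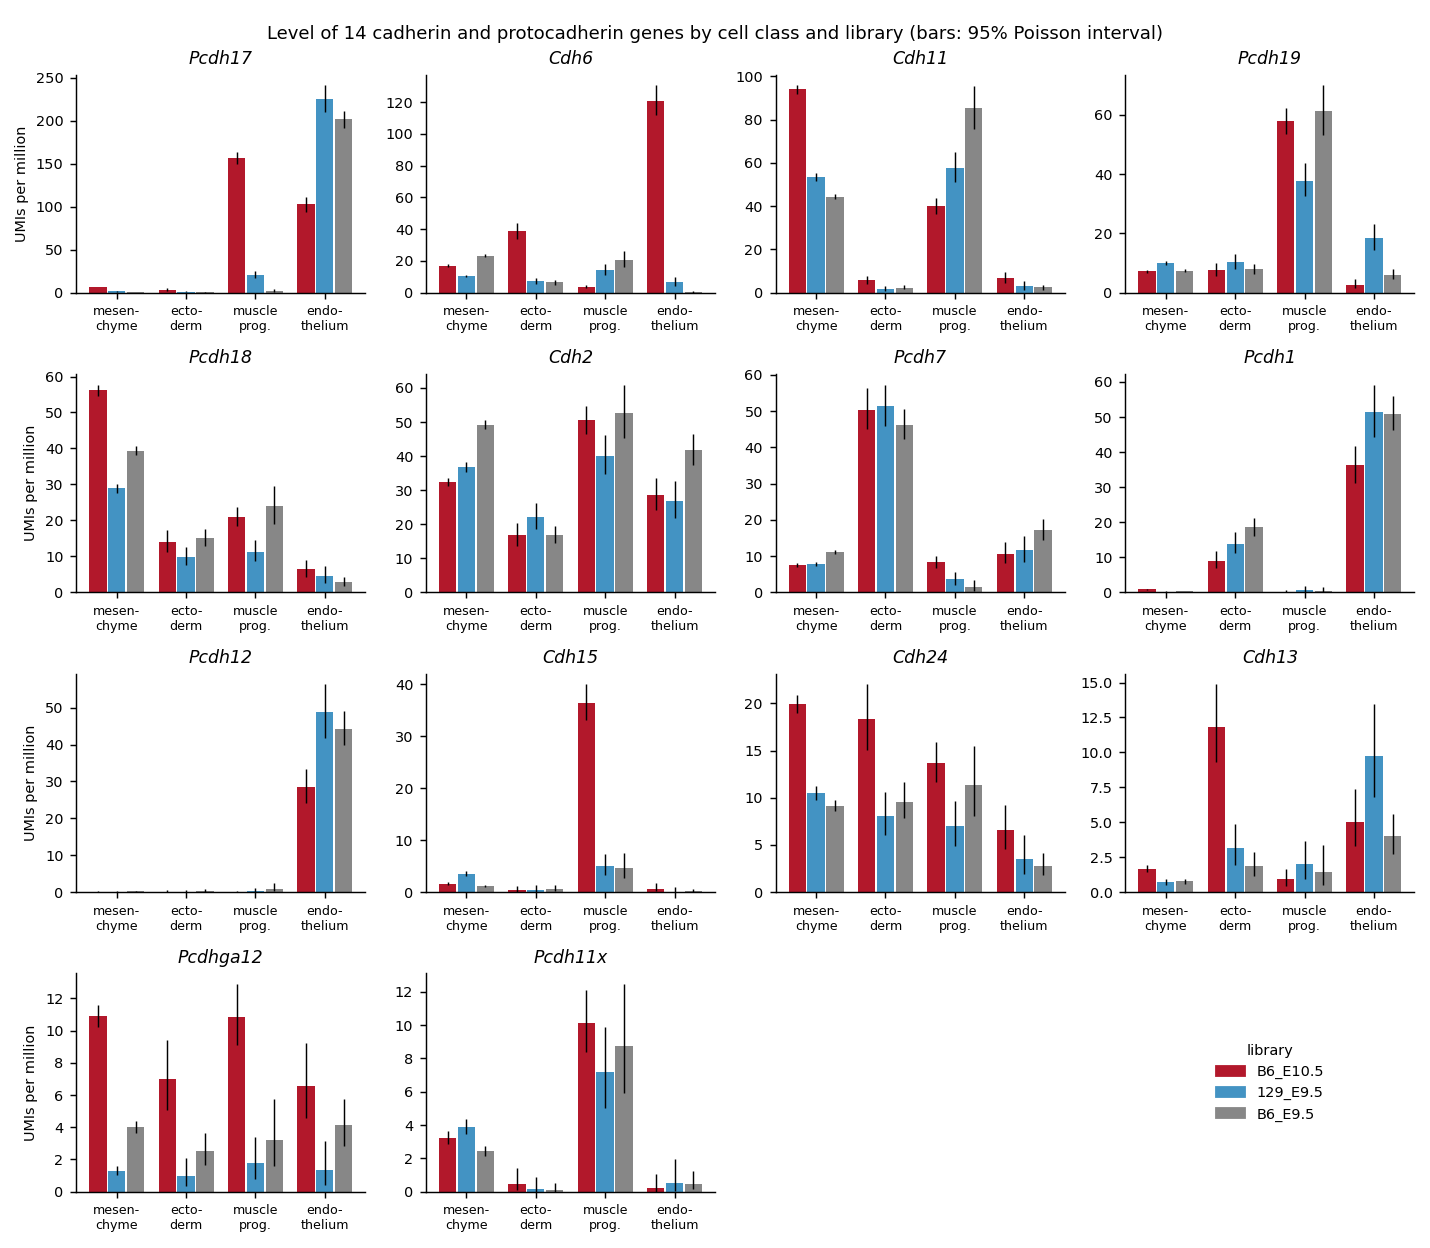
Level (CPM, linear axes from 0) of the 14 members with the highest CPM in limb mesenchyme, ectoderm, muscle progenitors and endothelium, with 1 bar per library (B6_E10.5, 129_E9.5 and B6_E9.5 from left to right) and exact 95% Poisson intervals that cover counting error only. Pcdh12 stands at 28.5 to 48.7 CPM in endothelium and under 1 CPM in the other classes, and Pcdh17 in muscle progenitors is 156 CPM in B6_E10.5 and 1.75 CPM in B6_E9.5.

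Pcdh12 (chr18:38267089-38284402), a protocadherin of endothelial cell junctions, was found at 28.5 CPM in the endothelial class of B6_E10.5, 48.7 in 129_E9.5 and 44.3 in B6_E9.5. No mesenchymal, ectodermal or muscle library passed 1 CPM. At least 1 UMI of it was present in 15.98%, 27.3% and 29.1% of endothelial cells and in 0.06%, 0.05% and 0.17% of mesenchymal cells of the same libraries, and with cells thinned in 4.30%, 10.4% and 9.26% of endothelial cells. Pcdh1 (chr18:38185914-38212053), also known from airway epithelium, had 36.2, 51.4 and 50.9 CPM in endothelium. It had 9.08, 13.9 and 18.5 CPM in ectoderm, in the same order of libraries, and stayed under 1 CPM in mesenchyme and muscle progenitors. Pcdh17 (chr14:84443563-84539002), known from the wiring of brain circuits, reached the highest level of all 60 genes, with 103 CPM (95% interval 94.1 to 112) in endothelium of B6_E10.5, 226 (211 to 242) in 129_E9.5 and 202 (192 to 212) in B6_E9.5. In B6_E10.5 it was also a gene of the muscle class, described below. Cdh5, the endothelial cadherin left out of the list, stood at 284, 297 and 348 CPM in the same class.

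Pcdh19 (chrX:133582860-133688987), a protocadherin that forms a complex with N-cadherin and whose human counterpart is mutated in an inherited epilepsy, was a muscle progenitor gene at both stages. It had 57.9 CPM (53.6 to 62.3) in muscle progenitors of B6_E10.5, 37.8 (32.6 to 43.6) in 129_E9.5 and 61.2 (53.2 to 70.0) in B6_E9.5. The B6 libraries did not differ beyond counting error, and 129_E9.5 was lower. Its level was 7.20, 9.99 and 7.39 CPM in mesenchyme, with ectoderm at 7.62, 10.3 and 7.91. A UMI of Pcdh19 was present in 32.1%, 24.4% and 43.9% of muscle progenitors and in 3.76%, 6.90% and 6.18% of mesenchymal cells. With each cell thinned to 2000 UMIs the muscle shares were 10.01%, 8.65% and 7.81%, so the order of the libraries in the unthinned shares is not read as a difference. Pcdh11x (chrX:120290259-120910619) was a low muscle gene with 10.1, 7.16 and 8.74 CPM, intervals that overlap, and 3.25, 3.89 and 2.42 CPM in mesenchyme.

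Cdh11 (chr8:102632095-102785642), the cadherin of loose mesenchyme and later of bone-forming cells, had most UMIs of all members, 17921 in all. Its level was 94.1 CPM (92.1 to 96.1) in limb mesenchyme of B6_E10.5, 53.5 (51.8 to 55.2) in 129_E9.5 and 44.5 (43.2 to 45.8) in B6_E9.5. Muscle progenitors had it too, at 39.96, 57.9 and 85.4 CPM, which is the opposite order of libraries and above the mesenchyme in both E9.5 libraries. Ectoderm and endothelium stayed at or under 6.78 CPM. Pcdh18 (chr3:49743296-49757325) had 56.2, 28.9 and 39.4 CPM in mesenchyme, 20.9, 11.3 and 23.9 CPM in muscle progenitors and 13.9, 9.97 and 15.1 CPM in ectoderm. The 129 library was the lowest in each of these classes.

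Cdh2 (N-cadherin, chr18:16588877-16809246), made by mesenchymal, muscle and neural cells, was shared by several classes. It had 32.3, 36.7 and 49.2 CPM in mesenchyme, 50.6, 40.2 and 52.7 CPM in muscle progenitors and 28.7, 26.8 and 41.8 CPM in the endothelial class. Ectoderm, which is known chiefly for E- and P-cadherin, still had 16.7, 22.2 and 16.8 CPM. For comparison, Cdh1 (E-cadherin) had 37.5, 40.02 and 48.0 CPM in ectoderm and Cdh3 (P-cadherin) 72.5, 43.5 and 60.5. Pcdh7 (chr5:57717967-58133230), whose frog counterpart is needed for the integrity of embryonic ectoderm, was the leading member of ectoderm with 50.4 (45.0 to 56.4), 51.4 (46.0 to 57.3) and 46.3 CPM (42.3 to 50.5), and these 3 levels do not differ beyond counting error. In mesenchyme it had 7.57, 7.83 and 11.1 CPM.

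Between stages, B6_E10.5 was set against B6_E9.5. With 1 library for each there is no replicate check and no test, so members are counted by size: 2-fold apart or more, where the higher of both libraries reached 10 CPM and 20 UMIs, and intervals cover counting error only. In muscle progenitors 3 of the 10 members above this floor were higher at E10.5 (4.36% of all 8099 genes) and 2 were lower (5.26%). In ectoderm it was 2 higher and 1 lower of 7 (3.84% and 1.77% of 8305 genes), in mesenchyme 3 higher and 0 lower of 7 (6.63% and 2.67% of 8040) and in endothelium 1 higher and 0 lower of 6 (7.81% and 2.53% of 8338). The median log2 ratio over the tested members was 0.51 in mesenchyme, 0.12 in ectoderm, 0.08 in muscle progenitors and -0.59 in endothelium, beside medians over all tested genes of 0.07, 0.01, -0.06 and -0.01. With so few members above the floor, these shares describe single genes and not the family.

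In muscle progenitors the largest stage difference was that of Pcdh17, with a level of 156 CPM (149 to 164) in B6_E10.5, against 1.75 CPM (0.64 to 3.80) in B6_E9.5, a ratio of 89.4 (41.0 to 244). The share of muscle progenitors with a UMI was 60.3% in B6_E10.5 and 1.75% in B6_E9.5, while 3.36% of mesenchymal cells in B6_E10.5 had one. With cells thinned the muscle shares were 25.7% in B6_E10.5, 5.35% in 129_E9.5 and 0% in B6_E9.5, where 0 of 269 thinned cells allow a share of up to 1.12%. That limit is on cells with a UMI at this depth, not on cells expressing the gene. The 129_E9.5 library had 20.7 CPM and 9.89% of cells. Of its 104 UMIs, 66 lay in few cells. The 62 cells of the 129_E9.5 muscle class with at least 2 UMIs of neuron markers held 145 CPM, and the 614 cells with muscle progenitor markers 14.8 CPM. In B6_E10.5 the 1457 cells with muscle progenitor markers held 156 CPM. Leaving out the neuron marker cells of each library, a check chosen after seeing the data, gave a stage ratio of 87.8 (40.2 to 239). Neuron markers summed to only 12.0 CPM in B6_E10.5 and 7.28 CPM in B6_E9.5, so this check could change the stage ratio little.

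Cdh15 (M-cadherin, chr8:122847966-122867397), the cadherin of myoblasts, had 36.5 CPM (33.1 to 40.04) in muscle progenitors of B6_E10.5, 4.97 (3.22 to 7.34) in 129_E9.5 and 4.66 (2.66 to 7.57) in B6_E9.5. It was 7.82-fold (4.76 to 13.8) higher in B6_E10.5 than in B6_E9.5 and 7.33-fold (4.90 to 11.5) higher than in 129_E9.5. Myf5, the myogenic factor that marks commitment to muscle, was detected in 718 muscle progenitors of B6_E10.5 and in 0 cells of the class in both E9.5 libraries. Within B6_E10.5 alone, Cdh15 had 42.5 CPM in the Myf5-positive cells and 30.1 CPM in the 780 without a Myf5 UMI, and Pcdh17 146 and 167 CPM. Of 10 members above the floor, 0 were 2-fold apart in either direction (0.0385% of 7787 genes higher and 0.0642% lower).

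Cdh6 and Cdh11 were lower in muscle progenitors of B6_E10.5 than in those of both E9.5 libraries. Cdh6 had 3.85 CPM in B6_E10.5, 14.1 in 129_E9.5 and 20.7 in B6_E9.5, a ratio of 0.19 (0.13 to 0.27) over B6_E9.5 and of 0.27 (0.18 to 0.40) over 129_E9.5. A check without the neuron marker cells was chosen after seeing the data. Cdh6 then had 3.53 CPM in B6_E10.5, 5.47 in 129_E9.5 and 20.8 in B6_E9.5. The 129_E9.5 level thus came largely from neuron marker cells and rested on 25 UMIs without them. Cdh11 was at 0.47 (0.40 to 0.54) of the B6_E9.5 level and at 0.69 (0.60 to 0.80) of the 129_E9.5 level. Pcdhga12, a clustered protocadherin, was the third member above 2-fold, at 10.9 CPM in B6_E10.5, 1.79 in 129_E9.5 and 3.20 in B6_E9.5, a ratio of 3.39 (1.83 to 6.96) over B6_E9.5. Markers of other cells also differed between the stages in this class. Endothelial markers summed to 27.4 CPM in B6_E10.5, 114 in 129_E9.5 and 194 in B6_E9.5, and somite markers to 360, 514 and 811 CPM. Their part in these ratios was not tested.

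**Figure D2:**
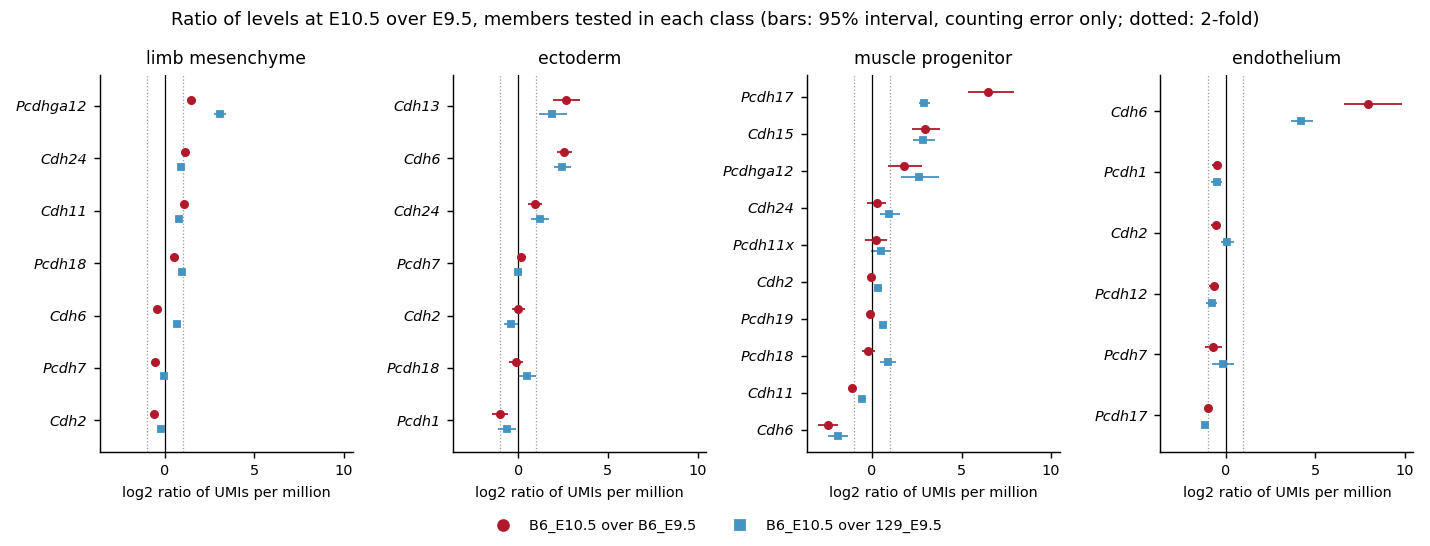
Log2 ratio of the level in B6_E10.5 over B6_E9.5 (red circles) and over 129_E9.5 (blue squares) for each member above the floor in the stage comparison, by class, with exact 95% intervals for counting error and dotted lines at 2-fold. Cdh6 lies far right in endothelium, right in ectoderm and left of 0 in muscle progenitors, and most other members lie between the dotted lines.

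In ectoderm Cdh6 and Cdh13 were at least 2-fold higher in B6_E10.5, and Pcdh1 was at least 2-fold lower. Cdh6 (K-cadherin, chr15:13028701-13173675), known from kidney and neural crest, had 38.8 CPM (34.0 to 44.0) in B6_E10.5, 7.12 (5.19 to 9.53) in 129_E9.5 and 6.51 (5.08 to 8.23) in B6_E9.5. The ratio was 5.95 (4.54 to 7.88) over B6_E9.5 and 5.44 (3.95 to 7.66) over 129_E9.5, and the E9.5 libraries overlapped. Cdh13 (T-cadherin, chr8:118283733-119324921), a cadherin held in the membrane by a lipid anchor and without a tail for catenins, had 11.8, 3.16 and 1.86 CPM, with ratios of 6.36 (3.83 to 11.01) over B6_E9.5 and 3.74 (2.26 to 6.48) over 129_E9.5. Pcdh1 was lower at E10.5, with a ratio of 0.49 (0.36 to 0.66) over B6_E9.5 and 0.65 (0.46 to 0.92) over 129_E9.5. It sits at the edge of the size limit: its ratio was 0.51 without the 5% deepest cells and 0.50 without cells of shared barcodes, the second a check chosen after seeing the data.

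In mesenchyme Cdh11, Cdh24 and Pcdhga12 passed 2-fold. Cdh11 had a ratio of 2.11 (2.04 to 2.19) over B6_E9.5 and 1.76 (1.69 to 1.83) over 129_E9.5. Cdh24 (chr14:54631231-54641364) had 19.9, 10.46 and 9.16 CPM, with ratios of 2.17 (2.01 to 2.36) and 1.90 (1.75 to 2.08). With TMM scaling, under which the median over all tested genes in mesenchyme was -0.09 on the log2 scale, Cdh11 was at 1.90 and Cdh24 at 1.96, both under 2-fold. Pcdhga12 (chr18:37765580-37841873) had 10.9, 1.30 and 4.002 CPM, with ratios of 2.72 (2.42 to 3.07) over B6_E9.5 and 8.42 (6.79 to 10.6) over 129_E9.5. It alone was past 2-fold against both E9.5 libraries. Of its exonic bases 31.8% lie in other genes too, so its counted levels are uncertain. Just under the floor, Pcdh10 had 7.57, 2.08 and 1.11 CPM. Cdh3, outside the list, had 13.2, 3.56 and 3.16 CPM in mesenchyme.

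In the endothelial class Cdh6 had 121 CPM (112 to 131) in B6_E10.5, 6.49 (4.16 to 9.66) in 129_E9.5 and 0.48 (0.13 to 1.24) in B6_E9.5, a ratio of 249 (96.9 to 918) over B6_E9.5. The counts came from few cells. Of the 624 UMIs in B6_E10.5, 577 were in 69 cells with at least 2 UMIs of neural crest and Schwann precursor markers, at 854 CPM (786 to 926), and the 427 cells with endothelial markers had 8.04 CPM (5.39 to 11.6). In 129_E9.5 the 49 cells with neural crest markers had 58.2 CPM (34.5 to 92.0), and the 376 with endothelial markers held 0 UMIs, which allows up to 1.1 CPM by the Poisson interval. Without the neural crest marker cells, a check chosen after seeing the data, the class had 10.48 CPM in B6_E10.5 and 0.49 in B6_E9.5, a ratio of 21.6 (7.88 to 82.4). Cdh19, a cadherin of Schwann cell precursors, was detected in the endothelial class of B6_E10.5 at 4.84 CPM and at 0 UMIs in that of both E9.5 libraries. The same neural crest marker cells of B6_E10.5 had 102 CPM of Cdh2, and without those cells the stage ratio of Cdh2 in the class was 0.42 in place of 0.69, and that of Pcdh7 0.46 in place of 0.62. Pcdh17 lay just inside the limit at 0.51 (0.46 to 0.56) and was at 0.45 (0.41 to 0.51) of the 129_E9.5 level. The E10.5 class also held 171 cells with macrophage markers, which had 7.51 CPM of Pcdh17, and in cells with endothelial markers the level was 145 CPM in B6_E10.5, 252 in 129_E9.5 and 208 in B6_E9.5. Megakaryocyte markers differed in the class as well, at 1333, 276 and 224 CPM in the same order, and their part in the ratios was not tested.

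**Figure D3:**
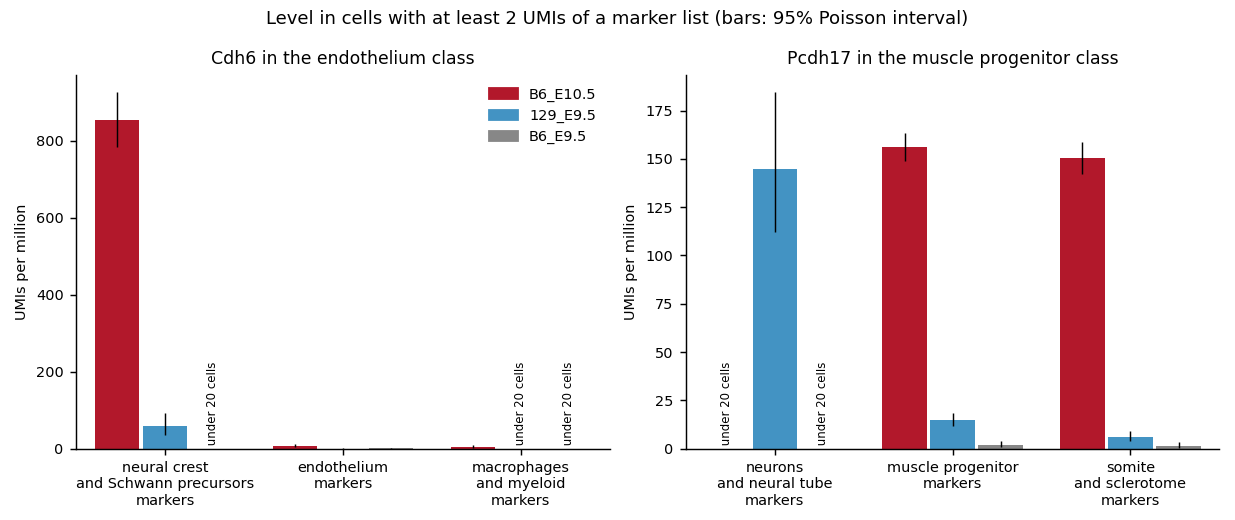
Level (CPM, linear axes from 0) of Cdh6 in the endothelial class and of Pcdh17 in the muscle progenitor class, within cells that held at least 2 UMIs of a marker list, per library (B6_E10.5, 129_E9.5 and B6_E9.5 from left to right) with 95% Poisson intervals. Groups under 20 cells are not drawn, and a cell may fall in several groups. Cdh6 is at 854 CPM in neural crest marker cells of B6_E10.5, and Pcdh17 at 145 CPM in neuron marker cells of 129_E9.5.

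Between strains, 129_E9.5 was set against B6_E9.5, the same B6_E9.5 library that serves the stage comparison. Few members were 2-fold apart. In mesenchyme 0 were higher and 1 was lower of 6 (2.68% and 4.05% of 7750 genes), in ectoderm 0 and 0 of 5 (2.37% and 3.42% of 8147), in muscle progenitors 1 and 1 of 7 (4.58% and 6.33% of 8020) and in endothelium 1 and 0 of 6 (3.73% and 3.67% of 8014). The lower mesenchymal gene was Cdh6, with 10.49 CPM in 129_E9.5 and 23.2 CPM in B6_E9.5, a ratio of 0.45 (0.42 to 0.49). In muscle progenitors Pcdh18 was at 0.47 (0.33 to 0.67). Pcdh17 was 11.8-fold (5.26 to 33.0) higher in 129_E9.5, but 4.66-fold (1.95 to 13.5) and at 8.31 CPM, under the floor, without the neuron marker cells. In the same check Cdh6 was at 0.26 (0.16 to 0.42) of the B6_E9.5 level, against 0.68 (0.48 to 0.96) with all cells. In endothelium Pcdh19 had 18.4 CPM in 129_E9.5 and 6.06 CPM in B6_E9.5, a ratio of 3.03 (2.08 to 4.46). Its counts came from cells with endothelial markers, at 20.6 CPM in the 376 cells of 129_E9.5 and 6.13 CPM in the 619 of B6_E9.5. Strain and library preparation cannot be told apart here.

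Within a class, cells with a UMI of a patterning gene were compared with those without, as summed counts per library with the 3 libraries as blocks (edgeR quasi-likelihood test, Benjamini-Hochberg adjustment over all genes tested, adjusted p under 0.05). Cells without a UMI of a marker may still express it, and marker-positive cells were often deeper, most of all for Meis1 in B6_E9.5 with a median of 16792 UMIs against 2277.5. Of the ectoderm, 251 cells in B6_E10.5, 514 in 129_E9.5 and 460 in B6_E9.5 were Fgf8-positive, with median depths of 5598, 4490 and 11926 UMIs, against 5805, 4952 and 8707 UMIs in the Fgf8-negative cells. Among the 14 members tested, 5 rose in Fgf8-positive ectoderm (6.45% of 11016 genes) and 2 fell (4.87%). With no replicate block 3 members rose and 0 fell with Fgf8, where 63 genes rose and 15 fell of all 10625. For the other markers 0 members were called, and over all genes that fit called 2 lower for Wnt7a and 0 for the rest. The libraries are the replicates and differ in strain and stage, so the p-values measure the spread between these 3.

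Pcdh19 had 27.1 CPM in Fgf8-positive and 1.29 CPM in Fgf8-negative ectoderm of B6_E10.5, 23.0 and 2.08 in 129_E9.5, and 14.2 and 1.34 in B6_E9.5. The log2 fold change was 3.76 ± 0.28 (SE, edgeR adjusted p = 3.5e-05). Cdh6 had 130 and 9.04 CPM in B6_E10.5, 13.7 and 2.86 in 129_E9.5, and 11.5 and 1.34 in B6_E9.5 (3.44 ± 0.26, edgeR adjusted p = 4.4e-05). It was higher in Fgf8-positive cells in 3 of 3 libraries, and both groups were highest in B6_E10.5. These 2 genes passed without each library in turn, with adjusted p of up to 0.02 for Pcdh19 and 0.010 for Cdh6.

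Cdh2 had 50.9 and 5.59 CPM in Fgf8-positive and Fgf8-negative ectoderm of B6_E10.5, 40.4 and 10.4 in 129_E9.5, and 25.6 and 7.64 in B6_E9.5 (log2 fold change 2.27 ± 0.24, edgeR adjusted p = 0.00028). N-cadherin was thus several-fold higher in the Fgf8-positive cells of each library. Pcdh9 (chr14:93013410-93890679) had 10.6 and 2.15 CPM, 17.8 and 1.04, and 8.00 and 2.10 in the same order (2.68 ± 0.38, edgeR adjusted p = 0.0017). Pcdh18 had 23.8 and 10.8, 19.8 and 3.65, and 20.7 and 9.16 CPM (1.49 ± 0.24, edgeR adjusted p = 0.0033). Pcdh9, Cdh2 and Pcdh18 were each higher in the Fgf8-positive cells in 3 of 3 libraries. Without 129_E9.5 these 3 missed the threshold, with edgeR adjusted p of 0.054 for Cdh2, 0.075 for Pcdh18 and 0.076 for Pcdh9. In that fit 2 members rose and 0 fell, and of all 10898 genes 46 rose and 26 fell. With all libraries 711 rose and 536 fell of 11016 genes, so calls were lost over all genes and not for these members alone. Pcdh9 also missed it with cells thinned to 2000 UMIs (edgeR adjusted p = 0.073).

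The genes lower in Fgf8-positive ectoderm were Cdh13 and Pcdh1. Cdh13 had 0.66 CPM in Fgf8-positive and 15.5 CPM in Fgf8-negative cells of B6_E10.5, 0.40 and 4.95 in 129_E9.5, and 0.55 and 3.25 in B6_E9.5 (-3.33 ± 0.48, edgeR adjusted p = 0.0018). Pcdh1 had 3.96 and 10.8, 7.27 and 18.2, and 15.3 and 22.0 CPM (-0.84 ± 0.22, edgeR adjusted p = 0.038), with groups that overlap across libraries. Without 129_E9.5 both missed the threshold (edgeR adjusted p of 0.076 for Cdh13 and 0.33 for Pcdh1), and Pcdh1 passed in 5 of its 10 alternatives. The fit without 129_E9.5 called 26 of all 10898 genes lower, against 536 of 11016 with all libraries. Pcdh7 had 52.9 and 49.7, 54.5 and 49.5, and 55.1 and 37.0 CPM and did not pass (0.33 ± 0.13, edgeR adjusted p = 0.14), nor did Cdh1 and Cdh3, with log2 fold changes of -0.11 ± 0.12 and 0.01 ± 0.10.

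The summed level of the 8 mesenchyme markers was also higher in Fgf8-positive ectoderm, at 555 against 208 CPM in B6_E10.5, 492 against 193 in 129_E9.5 and 442 against 352 in B6_E9.5. Most of it was Msx1, a gene that ridge ectoderm also makes, with 326 and 40.4, 403 and 104.7, and 377 and 226 CPM in the positive and negative cells. Prrx1, which defines the mesenchyme, had 52.0 and 49.5, 9.27 and 8.59, and 11.6 and 19.5 CPM. Pdgfra, another gene of the list, was higher in the positive cells of each library, at 73.7 and 9.47, 38.3 and 4.17, and 11.6 and 4.01 CPM. Prrx2 was lower in the positive cells of each library, at 32.2 and 39.6, 20.6 and 55.5, and 22.3 and 69.9 CPM. Twist1 was lower too, at 8.56 and 8.82, 3.22 and 4.17, and 5.99 and 11.5 CPM. Shox2, Tbx5 and Lhx9 differed in direction between libraries. Cdh11 had 5.92 and 5.59, 0.81 and 2.08, and 2.36 and 2.29 CPM. Neural crest markers were lower in Fgf8-positive cells, at 52.0, 16.1 and 20.0 CPM, against 312, 81.2 and 53.5 CPM in Fgf8-negative cells. Somite markers were lower too, at 17.1, 6.85 and 10.7 CPM against 35.5, 92.7 and 71.4 CPM. Neuron and neural tube markers were higher, at 150, 139 and 105.5 CPM against 29.7, 58.3 and 17.8 CPM. In ectoderm as a whole, much of each sum was 1 gene. Tubb3 made up 52.0 of 59.3, 83.1 of 90.2 and 60.6 of 62.7 CPM of the neuron sum. Meox1 made up 17.7 of 31.0, 55.8 of 59.0 and 39.0 of 40.3 CPM of the somite sum. Tfap2b made up 231 of 248, 40.02 of 55.7 and 17.4 of 36.3 CPM of the neural crest sum. The part of these markers in the result was not tested. Without ectodermal cells that held at least 2 UMIs of the mesenchyme markers other than Msx1 and Pdgfra, a check chosen after seeing the data, the log2 fold change was 4.41 for Pcdh19, 3.71 for Cdh6, 2.9998 for Pcdh9, 2.37 for Cdh2 and 1.58 for Pcdh18, all past the threshold, and Pcdh1 missed it (edgeR adjusted p = 0.063).

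**Figure D4:**
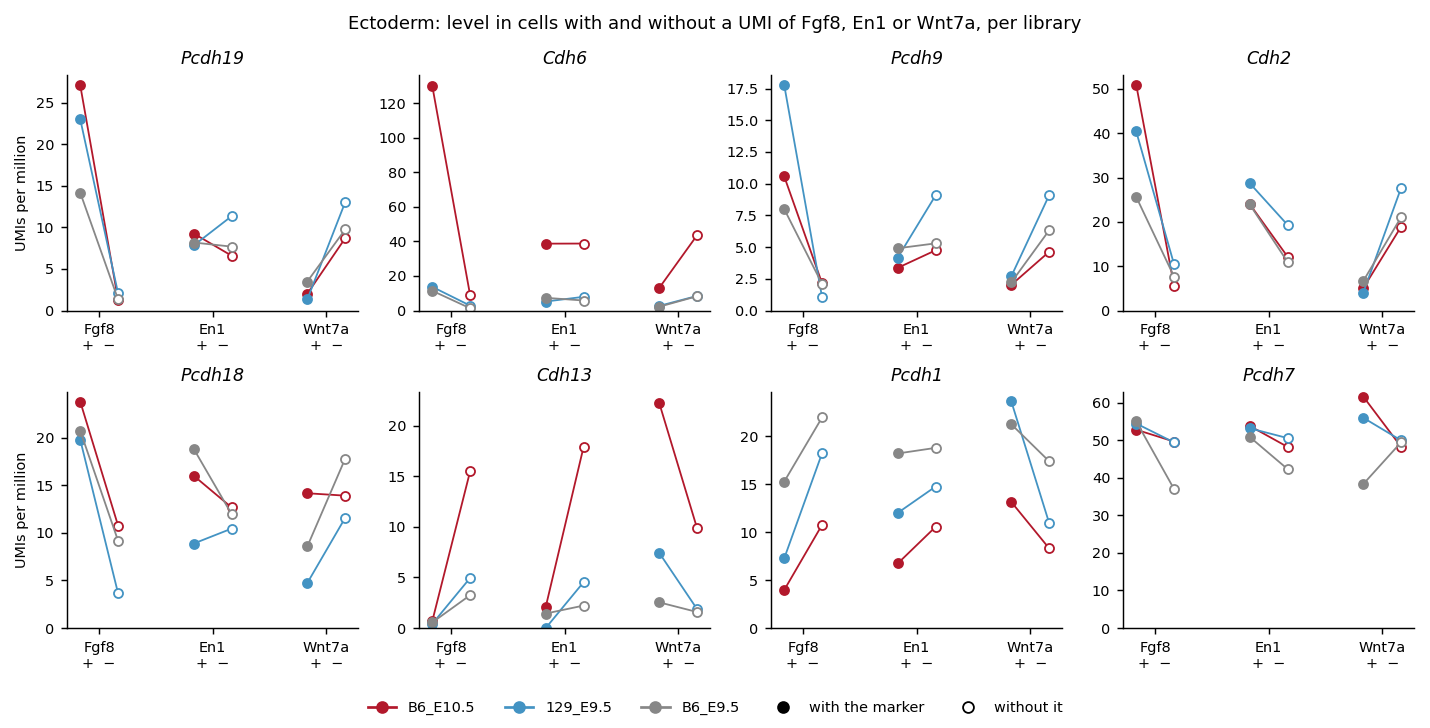
Level (CPM, linear axes from 0) of 8 members in ectoderm with (filled, left) and without (open, right) a UMI of Fgf8, En1 or Wnt7a, with 1 line per library and no error bar. For Pcdh19, Cdh6, Pcdh9, Cdh2 and Pcdh18 all 3 lines fall to the right for Fgf8, and for Cdh13 all 3 climb.

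En1 marks ventral ectoderm, where it is known to keep Wnt7a off, and Wnt7a marks dorsal ectoderm. The same ectodermal cells entered the Fgf8, En1 and Wnt7a comparisons, so these are not independent. Of 13 members tested, 1 rose in En1-positive ectoderm (0.709% of 10999 genes) and 1 fell (0.782%). Cdh2 had 24.0 CPM in En1-positive and 12.1 CPM in En1-negative cells of B6_E10.5, 28.7 and 19.3 in 129_E9.5, and 23.9 and 10.9 in B6_E9.5 (0.89 ± 0.16, edgeR adjusted p = 0.0070). With cells thinned to 2000 UMIs its log2 fold change was 0.23 and the adjusted p 0.96, and without B6_E9.5 the adjusted p was 0.29. Cdh13 had 2.10 and 17.9 CPM in B6_E10.5, 0 and 4.54 in 129_E9.5, and 1.43 and 2.22 in B6_E9.5 (-2.34 ± 0.48, edgeR adjusted p = 0.016, and 0.15 without B6_E10.5). Without 129_E9.5, or with cells thinned, it was too low to be tested.

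In Wnt7a-positive ectoderm, 1 of 13 members rose (3.85% of 10960 genes) and 5 fell (4.80%). The member that rose was Cdh13, at 22.2 CPM in Wnt7a-positive and 9.85 CPM in Wnt7a-negative cells of B6_E10.5, 7.43 and 1.86 in 129_E9.5, and 2.54 and 1.58 in B6_E9.5 (1.24 ± 0.33, edgeR adjusted p = 0.024). It missed the threshold without any 1 of the libraries, with adjusted p of up to 0.19. The 5 that fell were Cdh2, Cdh6, Pcdh19, Pcdh9 and Pcdh18. Cdh2 had 5.06 and 18.9, 4.05 and 27.7, and 6.66 and 21.1 CPM (-2.01 ± 0.24, edgeR adjusted p = 1.2e-05), and Cdh6 13.1 and 43.6, 2.70 and 8.47, and 2.22 and 8.30 CPM (-1.77 ± 0.26, edgeR adjusted p = 0.00013). Both held without each library in turn.

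Pcdh19 had 2.02 and 8.69, 1.35 and 13.0, and 3.49 and 9.75 CPM in Wnt7a-positive and Wnt7a-negative ectoderm (-1.99 ± 0.35, edgeR adjusted p = 0.00090, and 0.056 without B6_E9.5). Pcdh9 fell by 1.54 ± 0.38 (edgeR adjusted p = 0.014) and missed the threshold without 129_E9.5 or without B6_E9.5, with adjusted p of up to 0.26. Pcdh18 fell by 0.83 ± 0.25 (edgeR adjusted p = 0.044) but was lower in only 2 of 3 libraries, with 14.2 and 13.9 CPM in B6_E10.5, and passed in 2 of its 10 alternatives. Thinned to 2000 UMIs, where 45 to 100 cells a library are Wnt7a-positive, Cdh2 alone of the tested members kept its call. Cdh6 then had a log2 fold change of -1.73, close to the unthinned value, with an edgeR adjusted p of 0.53, and Pcdh9 was too low to be tested. Markers of other cells differed as well. Mesenchyme markers summed to 175 CPM in Wnt7a-positive and 316 CPM in Wnt7a-negative ectoderm of B6_E10.5, 150.5 and 359 in 129_E9.5, and 312 and 434 in B6_E9.5. Somite markers had 38.4 and 29.55, 129 and 37.6, and 102 and 14.75 CPM in the Wnt7a comparison, and 26.9 and 33.5, 36.01 and 69.01, and 7.36 and 67.8 CPM in the En1 comparison. Their part in these results was not tested.

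In limb mesenchyme the same comparison was made for the dorsal gene Lmx1b, the posterior gene Hand2, the anterior gene Alx4, the distal gene Hoxd13, the proximal gene Meis1 and the cartilage progenitor gene Sox9. The same mesenchymal cells entered each of these comparisons, so they are not independent, and a gene called in several is not a repeated finding. The calls were few and the changes mostly under 2-fold. Lmx1b-positive cells had 3 members higher and 0 lower of 48 (2.63% and 3.18% of 13289 genes). Pcdh19 had 12.5 and 6.35 CPM in Lmx1b-positive and Lmx1b-negative mesenchyme of B6_E10.5, 13.96 and 8.33 in 129_E9.5, and 10.8 and 3.86 in B6_E9.5 (1.06 ± 0.12, edgeR adjusted p = 0.00041). Cdh6 had 23.2 and 16.01, 15.0 and 8.62, and 30.8 and 15.5 CPM (0.80 ± 0.08, edgeR adjusted p = 0.00016). Pcdh10 had 14.7 and 6.42, 2.75 and 1.80, and 1.51 and 0.70 CPM (1.02 ± 0.14, edgeR adjusted p = 0.0016). These 3 passed without each library in turn, and with cells thinned Cdh6 alone passed (adjusted p of 0.0036, against 0.22 for Pcdh19 and 0.48 for Pcdh10).

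Along the anterior to posterior axis the same pair of genes moved. Hand2-positive mesenchyme had 1 member higher and 3 lower of 49 (0.874% of 13276 genes in each direction). Pcdh19 had 3.64 and 8.91 CPM in Hand2-positive and Hand2-negative cells of B6_E10.5, 5.86 and 10.9 in 129_E9.5, and 4.31 and 9.52 in B6_E9.5 (-1.14 ± 0.09, edgeR adjusted p = 0.00057). Cdh6 had 13.1 and 18.9, 7.30 and 11.2, and 19.5 and 25.7 CPM (-0.50 ± 0.06, edgeR adjusted p = 0.0039). Both were lower in Hand2-positive cells of each library, and Cdh6 missed the threshold without 129_E9.5 (adjusted p of 0.12). Pcdh11x fell by 0.96 ± 0.12 (edgeR adjusted p = 0.0053, 0.13 without 129_E9.5 and 0.12 with cells thinned). Pcdh7 rose by 0.40 ± 0.07 (edgeR adjusted p = 0.033) and lost its call without 129_E9.5 or without B6_E9.5, with adjusted p of up to 0.28.

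Alx4-positive mesenchyme had 2 members higher and 0 lower of 44 (0.942% and 1.27% of 13054 genes), again Pcdh19 and Cdh6. Pcdh19 had 15.1 and 6.77 CPM in Alx4-positive and Alx4-negative cells of B6_E10.5, 15.1 and 9.74 in 129_E9.5, and 13.2 and 6.46 in B6_E9.5 (0.95 ± 0.12, edgeR adjusted p = 1.8e-06). Cdh6 had 26.6 and 16.5, 14.8 and 10.3, and 29.4 and 22.2 CPM (0.48 ± 0.08, edgeR adjusted p = 0.00021). Both passed without each library in turn. With cells thinned, where 86 to 163 cells a library are Alx4-positive, neither passed, although the log2 fold change was 1.55 for Pcdh19 and 0.68 for Cdh6 (edgeR adjusted p of 0.16 and 0.76).

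Meis1-positive mesenchyme had 1 member higher and 1 lower of 40 (2.11% and 1.08% of 13006 genes), Pcdh11x and Cdh11. Cdh11 had 58.2 and 111 CPM in Meis1-positive and Meis1-negative cells of B6_E10.5, 41.9 and 60.4 in 129_E9.5, and 42.1 and 49.2 in B6_E9.5 (-0.60 ± 0.11, edgeR adjusted p = 0.029, and 0.065 without 129_E9.5). Pcdh11x rose by 0.69 ± 0.13 (edgeR adjusted p = 0.031, and 0.12 without 129_E9.5). Sox9-positive mesenchyme had 1 member higher and 1 lower of 49 (2.07% and 2.21% of 13213 genes), again Pcdh11x and Cdh11. Cdh11 had 81.7 and 106, 41.3 and 56.0, and 37.6 and 46.1 CPM (-0.38 ± 0.05, edgeR adjusted p = 0.0036, and 0.082 with cells thinned). Pcdh11x rose by 0.81 ± 0.16 (edgeR adjusted p = 0.024, 0.21 without 129_E9.5 and 0.36 with cells thinned).

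Hoxd13-positive mesenchyme had 0 of 41 members called by edgeR in either direction (0.193% of 12961 genes higher and 0.625% lower). DESeq2 called 1 member higher, beside 49 of all 12961 genes. Cdh11 had 124 and 89.8 CPM in Hoxd13-positive and Hoxd13-negative cells of B6_E10.5, 61.6 and 52.8 in 129_E9.5, and 53.5 and 43.5 in B6_E9.5. The log2 fold change was 0.35 ± 0.07 (edgeR adjusted p = 0.070), in the same direction in 3 of 3 libraries.

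Markers of mesothelium and flank differed in some of these comparisons. They summed to 1.51 CPM in Lmx1b-positive and 2.75 CPM in Lmx1b-negative mesenchyme of B6_E10.5, 1.30 and 10.9 in 129_E9.5, and 2.95 and 29.6 in B6_E9.5. With Hand2 they had 1.94 and 2.89, 15.01 and 6.59, and 24.15 and 10.6 CPM, with Meis1 2.75 and 2.498, 10.7 and 6.4999, and 19.2 and 9.92, and with Sox9 2.67 and 2.49, 3.23 and 9.06, and 8.34 and 18.002. Neural crest markers had 27.45 and 9.27 CPM in Hand2-positive and Hand2-negative cells of B6_E10.5. Their part in the calls was not tested.

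**Figure D5:**
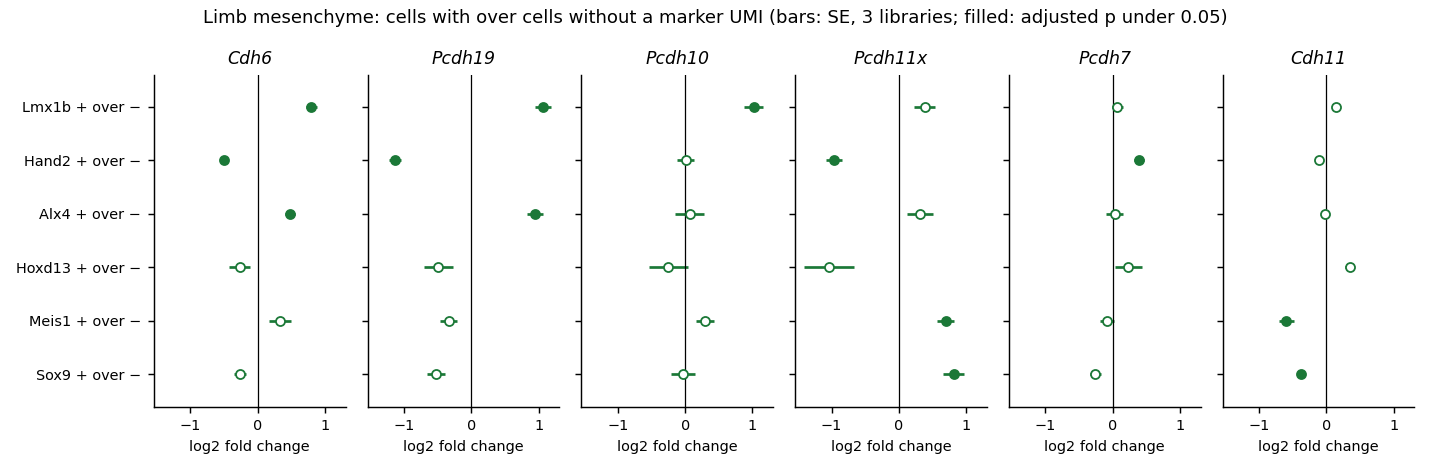
Log2 fold change (edgeR, points, with SE bars, 3 libraries) of 6 members in limb mesenchyme with over without a UMI of Lmx1b, Hand2, Alx4, Hoxd13, Meis1 or Sox9, filled where the adjusted p is under 0.05. Pcdh19 and Cdh6 lie right of 0 for Lmx1b and Alx4 and left of 0 for Hand2, and Cdh11 lies left of 0 for Meis1 and Sox9.

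The clustered protocadherins, which in neurons are switched on a few per cell from arrays of alternative promoters, were counted close to the limit of detection. All 34 lie on chromosome 18. The 14 beta genes together had 6.09 CPM in mesenchyme of B6_E10.5, 1.64 in 129_E9.5 and 0.79 in B6_E9.5. Ectoderm had beta gene sums of 3.73, 1.74 and 0.56 CPM. The 12 gamma-A genes summed to 15.2, 4.33 and 8.72 CPM in mesenchyme, of which Pcdhga12 made up 10.9, 1.30 and 4.002. The 3 gamma-C genes, the constant members of the array, summed to 11.7, 7.87 and 8.47 CPM in mesenchyme, with muscle progenitors at 9.87, 8.95 and 8.74 CPM. Gamma genes share their last exons, and between 27.8% and 66.8% of the exonic bases of each lie in other genes too. The split of 3′ tags among them is therefore uncertain, and so are their counted levels. How far the shared exons lowered the gamma counts was not tested.

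Catenins and other junction genes were counted in the same way. Of 18 catenins and adherens junction partners, 12 were tested by stage in mesenchyme and 0 were 2-fold apart, in ectoderm Nectin4 was higher of 15, in muscle progenitors Vcl was lower of 12, and in endothelium 0 of 11 were apart. By strain Ctnnd1 was lower of 11 in mesenchyme, Ctnnd2 and Nectin4 were higher of 16 in ectoderm, Jup was higher and Ctnnd1 and Nectin1 lower of 13 in muscle progenitors, and 0 of 11 were apart in endothelium. The shares of all genes are those given above for each class. Ctnnb1 (beta-catenin) stood at 237, 211 and 211 CPM in the mesenchymal class, and ectoderm had 435, 412 and 403 CPM. In Fgf8-positive ectoderm 1 of 16 rose and 3 fell, beside 6.45% and 4.87% of all genes: Ctnnb1 had 552 and 397, 517 and 345, and 470 and 332 CPM in the positive and negative cells (0.56 ± 0.07, edgeR adjusted p = 0.00079), and Nectin2, Nectin4 and Afdn were the 3 that fell. Of the wider superfamily, 2 of 10 rose there, beside the same 6.45%: Celsr2, a planar polarity cadherin (1.53 ± 0.20), and Fat3 (1.10 ± 0.27). Of 9 factors known to repress or switch cadherins, 7 were tested in ectoderm and 1, Snai2, rose in Fgf8-positive cells (0.66 ± 0.14, edgeR adjusted p = 0.012). In mesenchyme 2 of 7 were lower in 129_E9.5 than in B6_E9.5, where 4.05% of all genes were, Zeb2 and Twist1, with Twist1 at 85.9 CPM in 129_E9.5 and 194 CPM in B6_E9.5. In muscle progenitors 2 of 7 were lower by strain, Foxc2 and Twist1, where 6.33% of all genes were. Under 10 CPM, Twist1 was also lower in 129_E9.5 in ectoderm (ratio 0.44) and endothelium (0.37). Of 17 regulators and partners of clustered protocadherins, Dnmt3a, a DNA methyltransferase, was the member past 2-fold by stage in mesenchyme (of 15) and in ectoderm (of 14), higher in B6_E10.5 in both, where 6.63% and 3.84% of all genes were.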

How the data were processed

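Single cells of wild-type mouse forelimb buds were measured in 3 libraries, 1 per stage and strain, with the 10x Genomics 3′ v2 kit, per the labels' protocols. The deposited values are raw UMI counts per gene and cell, made by the authors with Cell Ranger 3 and build mm10, per the submitters' processing notes. The 5 clusters are those the authors deposited, and no doublet caller was run. Of 15122 gene IDs, 15119 matched GENCODE M21. Promoters are from RefSeq (GRCm38.p6), and 18 of the 60 members were found there, those on chromosome 18 being left out.

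Levels are CPM with exact 95% Poisson intervals, and ratios have exact conditional binomial intervals; both cover counting error only. A count of 0 was set to 3 UMIs in a ratio. Marker-positive and marker-negative cells were summed per library, leaving the marker's own UMIs out of the totals, and tested with edgeR 4.0.16 (quasi-likelihood, filterByExpr, TMM, Benjamini-Hochberg over all genes tested, threshold 0.05), with the library as a block, since both sums of a library come from the same reaction. DESeq2 1.42.0 was an alternative. Libraries with under 20 cells on a side were left out. Thinning drew 2000 UMIs per cell and left out shallower cells. The procedures were tested on simulated data. Alternatives covered scaling, floors, fold limits, filters, thinning, deep cells and each library left out.

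Genes named are the 14 of highest level, those counted by stage or strain in mesenchyme or ectoderm, and those called for a marker, up to the 5 of smallest p. Other genes named (Cdh19 and Pcdh10 in the stage comparison) were chosen after their values were seen. The members and lists were chosen with earlier results of these data known. Tools were R 4.3.3, Python 3.11.15, scipy 1.17.1, pandas 2.3.3 and matplotlib 3.10.9.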

Additional observations from a re-analysis of the deposited data

Results flagged for a closer look

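The stage ratio (B6_E10.5 over B6_E9.5) of Cdh11 was 2.11 in limb mesenchyme and 0.468 in muscle progenitors, opposite directions in 2 classes. That of Cdh6 was 5.95 in ectoderm and 249 in the endothelial class, and 0.186 in muscle progenitors. With 1 library per stage these differences between classes were not tested.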

How the results depend on the processing

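Of 289 recomputed fold changes of named members, 212 kept their direction and call, 77 kept their direction and lost the call and 0 reversed. Of 192 recomputed levels, 169 moved by less than the counting interval. Counts of members moved as follows, and the cause was not tested.

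With no replicate block, the members called higher for Fgf8 numbered 3 and lower 0, and 0 were called for En1, Wnt7a, Lmx1b, Hand2, Alx4, Meis1 and Sox9 in either direction. No paired analysis was possible because each group of the stage and strain comparisons has 1 library. Leaving out each library in turn gave 2 to 6 members higher and 0 to 2 lower for Fgf8, 0 to 1 each way for En1 and Meis1, 0 to 1 higher and 2 to 5 lower for Wnt7a, 0 to 1 higher and 1 to 3 lower for Hand2, 0 to 1 higher and 0 to 4 lower for Hoxd13, and 0 to 2 higher and 1 to 3 lower for Sox9. Over all genes these fits called 46 to 858 higher and 26 to 708 lower for Fgf8, and 8 to 243 and 26 to 246 for En1. It was 128 to 519 and 53 to 675 for Meis1, 27 to 802 and 70 to 840 for Wnt7a, and 8 to 245 and 10 to 196 for Hand2. For Hoxd13 it was 8 to 295 and 32 to 499, and for Sox9 62 to 498 and 74 to 793. These fits tested 10335 to 10898 genes in ectoderm and 12472 to 13159 in mesenchyme.

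DESeq2 called 1 member lower for Fgf8, 0 each way for En1 and Meis1, 0 higher and 3 lower for Wnt7a, 0 higher for Hand2 and 1 higher for Hoxd13. Over all genes it called 178 of 11016 lower for Fgf8, 18 higher and 26 lower of 10999 for En1, and 182 and 172 of 13006 for Meis1. For Wnt7a it was 102 and 124 of 10960, with 66 of 13276 higher for Hand2 and 49 of 12961 higher for Hoxd13. With cells thinned, 0 were lower for Fgf8, 0 called each way for En1, 0 higher and 1 lower for Wnt7a, 1 higher for Lmx1b, 0 higher for Hand2, Alx4 and Sox9, and 1 higher for Hoxd13. Cdh13 was then too low to be tested for Fgf8 and En1. Of all genes, 206 of 8503 were lower for Fgf8, 6 were higher and 7 lower of 8321 for En1, and 22 and 80 of 8517 for Wnt7a. Higher were 36 of 11158 for Lmx1b, 47 of 11366 for Hand2, 2 of 11147 for Alx4, 270 of 11779 for Sox9 and 70 of 11158 for Hoxd13. With no filter, 2 were higher for Wnt7a (511 of all 14434 genes) and Hand2 (148 of 15047) and 1 lower for Alx4 (270 of 15047). Without the 5% deepest cells, 1 was lower for Fgf8 (473 of all 10912 genes), 0 lower for En1 (52 of 10914) and 2 higher for Hand2 (133 of 13182). Without shared barcodes 0 were higher for Hand2 (85 of all 13234 genes), and without mesenchyme marker cells 1 was lower for Fgf8 (383 of 10690). Both checks were chosen after seeing the data.

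By stage, TMM scaling left 1 of 7 members higher in mesenchyme (5.05% of all genes) and 1 of 6 lower in endothelium (3.36%). A floor of 50 CPM left 1 of 2 higher in mesenchyme (4.57% of all genes) and 0 each way of 1 in ectoderm (2.38% and 1.44%). In muscle progenitors it left 1 each way of 4 (2.5% and 3.72%). By strain it left 0 in mesenchyme (2.44% and 3.53% of all genes), muscle progenitors (3.54% and 4.21%) and endothelium (2.09% and 2.85%). With no CPM floor, 26 of 50 tested members were higher and 2 lower by stage in mesenchyme (14.9% and 5.73% of all genes), 6 of 13 higher in ectoderm (6.21%), 7 of 16 higher in muscle progenitors (8.37%), and 5 higher and 1 lower of 14 in endothelium (11.1% and 3.38%). By strain 4 were higher and 11 lower of 33 in mesenchyme (5.49% and 8.21%), 1 of 13 lower in ectoderm (5.61%), and 3 higher and 1 lower of 10 in endothelium (4.62% and 5.49%). A fold of 1.5 gave 1 of 7 lower in mesenchyme (8.91% of all genes) and 3 of 6 lower in endothelium (10.6%) by stage. By strain it gave 1 of 5 lower in ectoderm (10.9%), 3 of 7 in muscle progenitors (16.5%) and 1 of 6 in endothelium (11.1%). Thinning gave 1 of 7 lower in muscle progenitors (4.32% of all genes) and 2 of 5 lower in endothelium (5.09%) by stage. By strain it gave 0 of 4 lower in muscle progenitors (5.43%) and 0 of 4 higher in endothelium (5.25%). Without the 5% deepest cells 0 were lower in ectoderm (1.87% of all genes) and 1 in endothelium (3.03%) by stage. For the checks chosen after seeing the data, the share of all genes was not computed here, so single genes are given. Without shared barcodes Pcdh1 did not pass 2-fold in ectoderm by stage. Without neural crest or neuron marker cells, Cdh2 and Pcdh7 were lower in endothelium by stage, with ratios of 0.42 and 0.46. By strain Cdh6 (0.26) and Pcdh18 (0.49) were lower in muscle progenitors. Pcdh19 (3.30) and Cdh13 (2.65) were higher in endothelium by strain. Of the 34 clustered protocadherins 24 stayed under 1 CPM as counted.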
